A study of Mus musculus with 126 samples.

Results

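The genes described here are 10 genes that germ cells use to build the meiotic chromosome axis, to recombine homologous chromosomes or to enter meiosis: Sycp1, Sycp2, Sycp3, Stag3, Smc1b, Rec8, Hormad1, Stra8, Dmc1 and Msh4. They were picked by name, as the rows of the RNA-seq count table that carry these symbols, so 10 of the 23420 genes in the table are covered. All 10 passed the filter on low counts that left 15822 genes for testing. The RNA came from mouse embryonic stem cells of the J1 strain, grown in serum with leukaemia inhibitory factor, in 4 groups of 2 libraries. Wild type cells and cells of genotype Dnmt1-/-, Dnmt3a-/-, Dnmt3b-/- (TKO, which lack the enzymes that write and copy DNA methylation) were each kept for 36 h with 5 ng/µl Trichostatin A (TSA, an inhibitor of histone deacetylases) or with 0.0033% DMSO, its solvent. The question behind the series is the part that DNA methylation and histone acetylation play in where transcription factors bind. The labels do not say whether the TKO cells are 1 clone, nor whether the 2 libraries of a group came from separate cultures, so p-values measure only the spread between these libraries. In a difference between TKO and wild type cells, the genotype and the clone cannot be told apart here.

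In meiotic prophase each replicated chromosome folds into loops along a protein axis. Cohesin with meiotic subunits (Rec8, Stag3 and Smc1b) holds the sister chromatids in that axis, and Sycp2, Sycp3 and the HORMA domain protein Hormad1 are laid on it. Sycp1 then joins the axes of paired homologues like the teeth of a zip. Programmed DNA breaks are repaired across homologues by the recombinase Dmc1 and stabilised as crossover intermediates by Msh4, while Stra8 is the retinoic acid responsive factor that switches the programme on. These genes are normally silent or low outside the germ line. In mouse stem cells several of them are known to be held down by a Polycomb-type complex, PRC1.6, which contains Mga, Max, L3mbtl2, Pcgf6 and E2f6 and reads E-box and E2F motifs, and some germline promoters of this kind are methylated in somatic cells.

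Total counts ran from 13280631 to 15542527 per library, and the floor of 3 counts lay between 0.183 and 0.243 normalised CPM (counts scaled to the effective size of each library, in the usual CPM unit). The floor covers counting error only. The targeted genes were lower in the TKO libraries, by log2 fold changes of -1.78 for Dnmt1, -3.00 for Dnmt3a and -3.72 for Dnmt3b in DMSO. The 8 embryonic stem cell markers, among them Pou5f1, Nanog and Sox2, were present in every library, with a summed level of 2730 to 2993 CPM in wild type cells with DMSO and 1535 to 1757 in those with TSA, and 3467 to 3856 in TKO cells with DMSO and 1780 to 2036 in those with TSA. The 7 primordial germ cell markers summed to 163 to 188, 302 to 327, 221 to 262 and 443 to 492 CPM in the same order. The 8 spermatid markers summed to at most 0.405 CPM in wild type cells with DMSO and 4.89 in those with TSA, and at 0.582 in TKO cells with DMSO and 9.41 in those with TSA, with Acrv1 and Prm1 at 0 in all 8 libraries. The summed levels of 7 oocyte markers (6.15 to 16.0 CPM) and 7 testis somatic markers (5.43 to 9.58 CPM) stayed low over all libraries. Of 4 oocyte markers tested, 3 fell with TSA in TKO cells, where 27.9% of all genes were lower. In TKO cells in DMSO 1 rose, where 9.62% were higher. Star, the 1 testis somatic marker tested, rose with TSA in each genotype, where 27.0% and 30.8% of all genes were higher. Fibroblast and endoderm markers also moved with the groups. The 9 fibroblast markers summed to 40.2 and 47.3 CPM in wild type cells given DMSO, 87.8 and 104 in those given TSA, 22.6 and 21.9 in TKO cells given DMSO and 49.6 and 74.1 in those given TSA. Of 8 tested, 5 rose and 1 fell with TSA in wild type cells, 8 rose in TKO cells, and 1 rose and 3 fell in TKO cells in DMSO. Of all tested genes, 52.8%, 58.7% and 20.4% were called in these comparisons, in that order. The 7 endoderm markers summed to 5.49 and 7.29, 8.79 and 11.5, 18.3 and 20.3, and 28.3 and 32.4 CPM in the same order. Of 6 tested, 1 rose with TSA in wild type and 2 in TKO cells, and 4 rose in TKO cells in DMSO and 3 under TSA. The shares of all tested genes that were higher were 27.0%, 30.8%, 9.62% and 10.0%, in that order. The part of these marker levels in the results below was not tested. In bulk RNA, more cells that express a gene and more RNA per cell cannot be told apart.

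The upstream sequences of the 5 members that stand for the different responses described below are shown here, because the study asks about factors that bind such sequences. RefSeq gene starts of the GRCm38.p6 build were matched for 10 of 10 members, and the 250 bases before the start were taken, 5′ to 3′ on the strand of the gene. Capitals mark matches on either strand to the E-box CACGTG of the MYC, MAX and MGA family, the E2F core TCCCGC, the NRF1 core GCGCATGC, the SP1 core GGGCGG and the YY1 core AAGATGGC. Smc1b and Hormad1 rose in TKO cells, Rec8 rose with TSA, and Stag3 rose with TSA and in TKO cells. Sycp3 passed the test in no comparison with all 8 libraries and no replicate block.
Hormad1 promoter, chr3:95559427-95559676, plus strand: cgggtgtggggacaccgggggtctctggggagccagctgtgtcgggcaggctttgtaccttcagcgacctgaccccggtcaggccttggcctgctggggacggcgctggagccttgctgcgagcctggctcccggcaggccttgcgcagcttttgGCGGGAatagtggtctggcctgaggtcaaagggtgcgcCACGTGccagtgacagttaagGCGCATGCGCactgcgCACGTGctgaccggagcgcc
Smc1b promoter, chr15:85131958-85132207, minus strand: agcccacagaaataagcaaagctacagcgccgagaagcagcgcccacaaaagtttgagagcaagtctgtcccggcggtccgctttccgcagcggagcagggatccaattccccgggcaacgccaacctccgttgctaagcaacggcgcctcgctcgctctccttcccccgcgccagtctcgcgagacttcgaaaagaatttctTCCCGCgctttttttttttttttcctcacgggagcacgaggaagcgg
Stag3 promoter, chr5:138280259-138280508, plus strand: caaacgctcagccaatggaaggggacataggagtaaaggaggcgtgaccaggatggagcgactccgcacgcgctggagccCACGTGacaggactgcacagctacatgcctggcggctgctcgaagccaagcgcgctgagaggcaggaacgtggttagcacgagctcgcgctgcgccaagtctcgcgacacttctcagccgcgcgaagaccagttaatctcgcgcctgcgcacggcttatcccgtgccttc
Rec8 promoter, chr14:55617916-55618165, plus strand: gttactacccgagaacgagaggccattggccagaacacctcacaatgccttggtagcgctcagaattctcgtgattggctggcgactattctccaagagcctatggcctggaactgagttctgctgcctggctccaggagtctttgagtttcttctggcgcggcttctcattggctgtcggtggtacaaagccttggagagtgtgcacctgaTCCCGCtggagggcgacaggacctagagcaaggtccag
Sycp3 promoter, chr10:88459337-88459586, plus strand: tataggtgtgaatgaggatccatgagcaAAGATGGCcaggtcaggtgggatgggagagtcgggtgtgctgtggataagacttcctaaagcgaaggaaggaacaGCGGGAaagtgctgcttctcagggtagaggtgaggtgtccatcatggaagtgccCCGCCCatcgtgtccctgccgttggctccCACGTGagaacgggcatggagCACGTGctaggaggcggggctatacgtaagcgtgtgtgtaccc

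The E-box was found upstream of 4 of 10 members (Sycp1, Sycp3, Stag3 and Hormad1), against 6.05% of 27018 mouse gene promoters of the same length. The E2F core was found upstream of 5 of 10 (Sycp3, Smc1b, Rec8, Hormad1 and Dmc1), against 16.9% of promoters. Hormad1 held 2 E-boxes, 57 and 20 bases before the start, an E2F core 95 bases before it, and between the E-boxes a palindromic stretch that reads as the NRF1 core on both strands, 36 and 34 bases before the start. The NRF1 core was found at no other member and in 2.32% of promoters. Sycp3 also held 2 E-boxes, 64 and 43 bases before the start, an E2F core, an SP1 core and the YY1 core, which 1.59% of promoters hold. The SP1 core was found in 3 members against 32.9% of promoters, and the ETS core CCGGAAG of GABPA in 0 members against 7.05%. CpG density also differed among the members. The ratio of observed to expected CpG was 1.21 at Smc1b, 1.05 at Stag3 and 0.893 at Sycp1, and 0.307 at Sycp2 and 0.267 at Stra8, against a median of 0.378 over all promoters and 0.576 over the members. A match is a description of these letters only. Of the 2 RefSeq starts of Hormad1 the one used equals the deposited gene start, and the RefSeq start of Msh4 lies 1247 bases inside the deposited gene, so its upstream window is not that of the deposited model. DNA methylation itself was not analysed here.

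**Figure D1:**
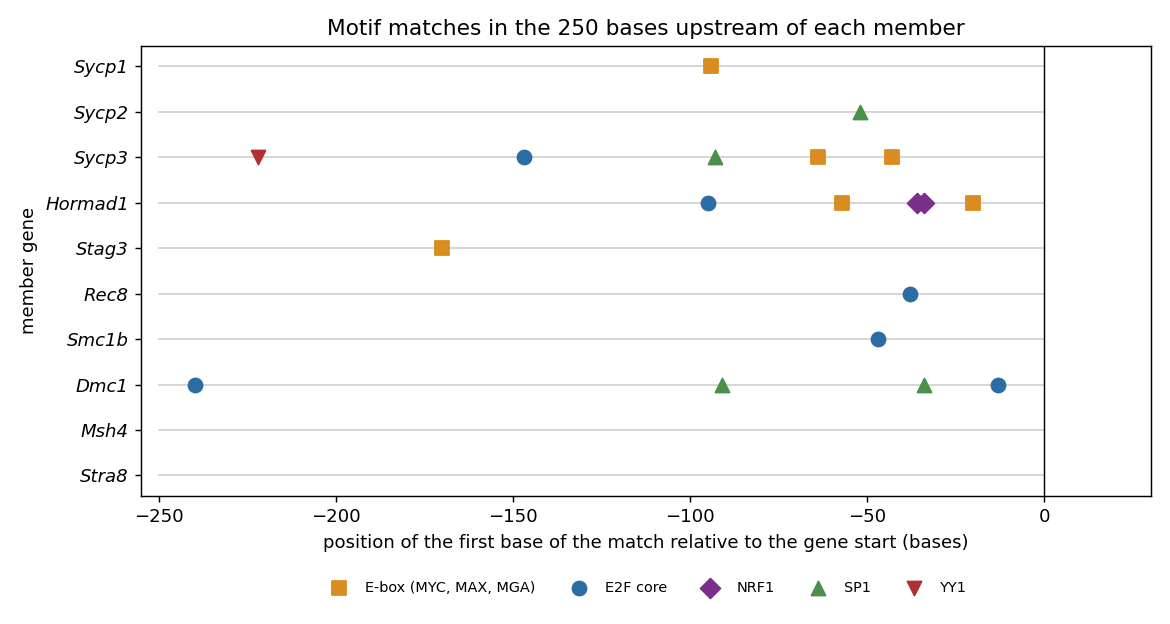
Motif matches in the 250 bases upstream of the 10 members. The x axis is the distance in bases of the first base of each match from the RefSeq start, each row is a gene and each symbol a motif. Hormad1 and Sycp3 each hold 2 E-boxes within 64 bases of the start, with an E2F core 95 and 147 bases before it. Stra8 and Msh4 hold none of the motifs searched, and the Msh4 window lies inside the deposited gene.

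Across the comparisons, most members were higher after TSA, and fewer were higher in TKO cells. With TSA in wild type cells, 6 of 10 members rose and 1 fell in edgeR's quasi-likelihood test at an adjusted p below 0.05, where 52.8% of all tested genes were called (27.0% higher and 25.9% lower). With TSA in TKO cells the counts were again 6 higher and 1 lower, where 58.7% of genes were called (30.8% higher, 27.9% lower). In DMSO, TKO cells had 3 members higher and 1 lower than wild type cells, where 20.4% of genes were called (9.62% higher, 10.7% lower). Under TSA, 4 were higher and 0 lower in TKO cells, where 18.4% were called (10.0% higher, 8.38% lower). Between TKO cells with TSA and wild type cells with DMSO, 8 of 10 were higher and 0 lower, where 61.9% were called (31.7% higher, 30.2% lower). With TSA the members were called not much more often than all genes, and 6 of the 7 called were higher in each genotype. The members' median log2 fold change with TSA was 0.82 in wild type and 1.16 in TKO cells, against 0.01 and 0.04 over all tested genes. It was 0.50 and 0.52 for TKO against wild type in DMSO and TSA, against -0.01 and 0.00, and 1.83 for both changes together, against 0.00. These comparisons share libraries and are not independent of each other. The members were chosen with earlier results of these data known, so setting them against all genes is description and not independent support. Single libraries carried part of these counts. Members called with TSA in wild type cells went from 7 to 4 without wild type DMSO replicate 1, and members called in TKO cells under TSA went from 4 to 1 without wild type TSA replicate 1.

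**Figure D2:**
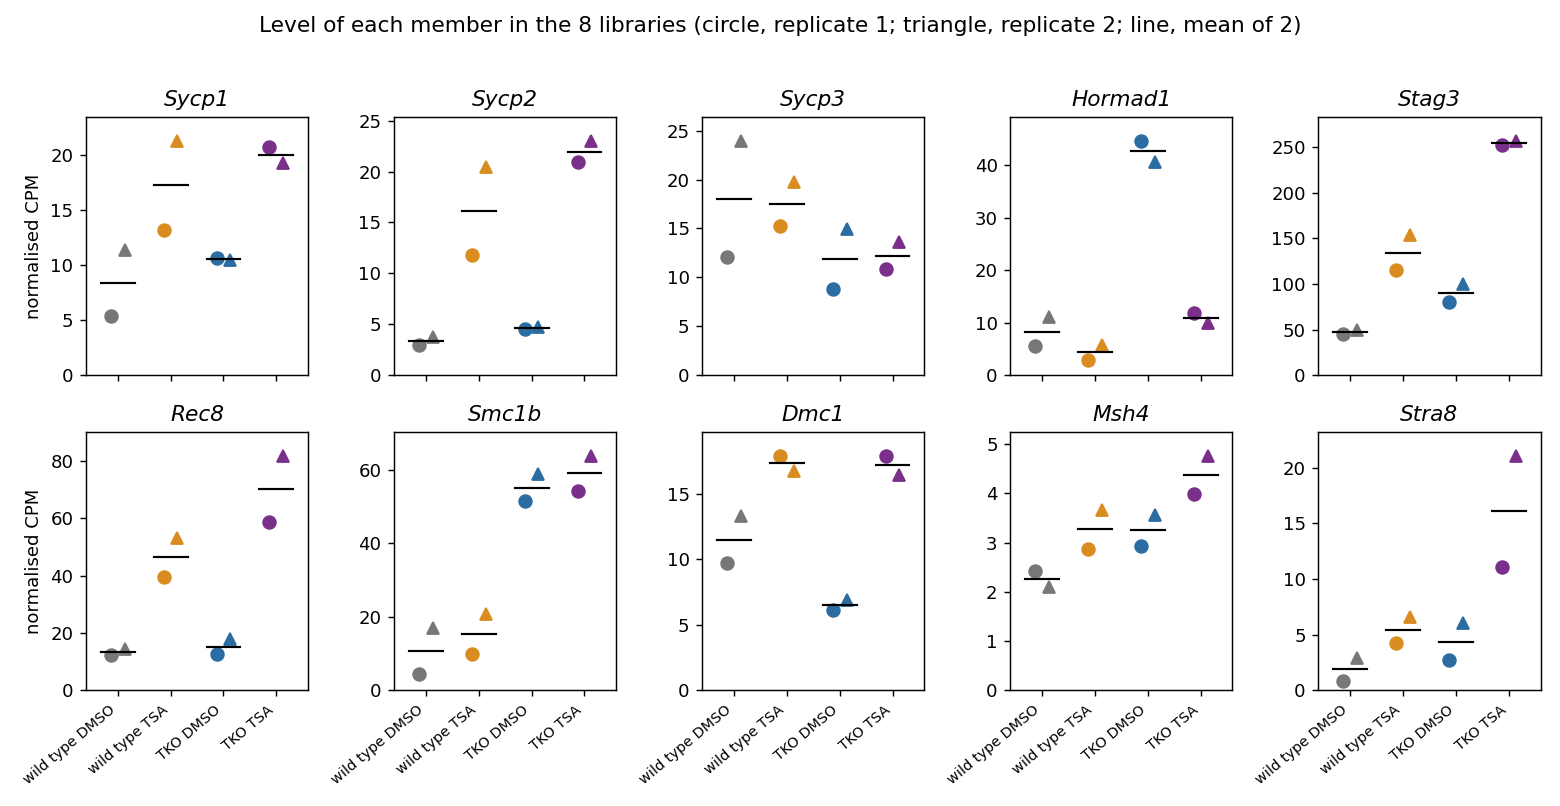
Level of each member in each library. The y axis is normalised CPM from 0 and the x axis the 4 groups; circles are replicate 1, triangles replicate 2 and the black line their mean. Stag3 reaches 255 CPM in TKO TSA, Smc1b is high in both TKO groups, and Hormad1 is high in TKO DMSO and low in the other groups.

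**Figure D3:**
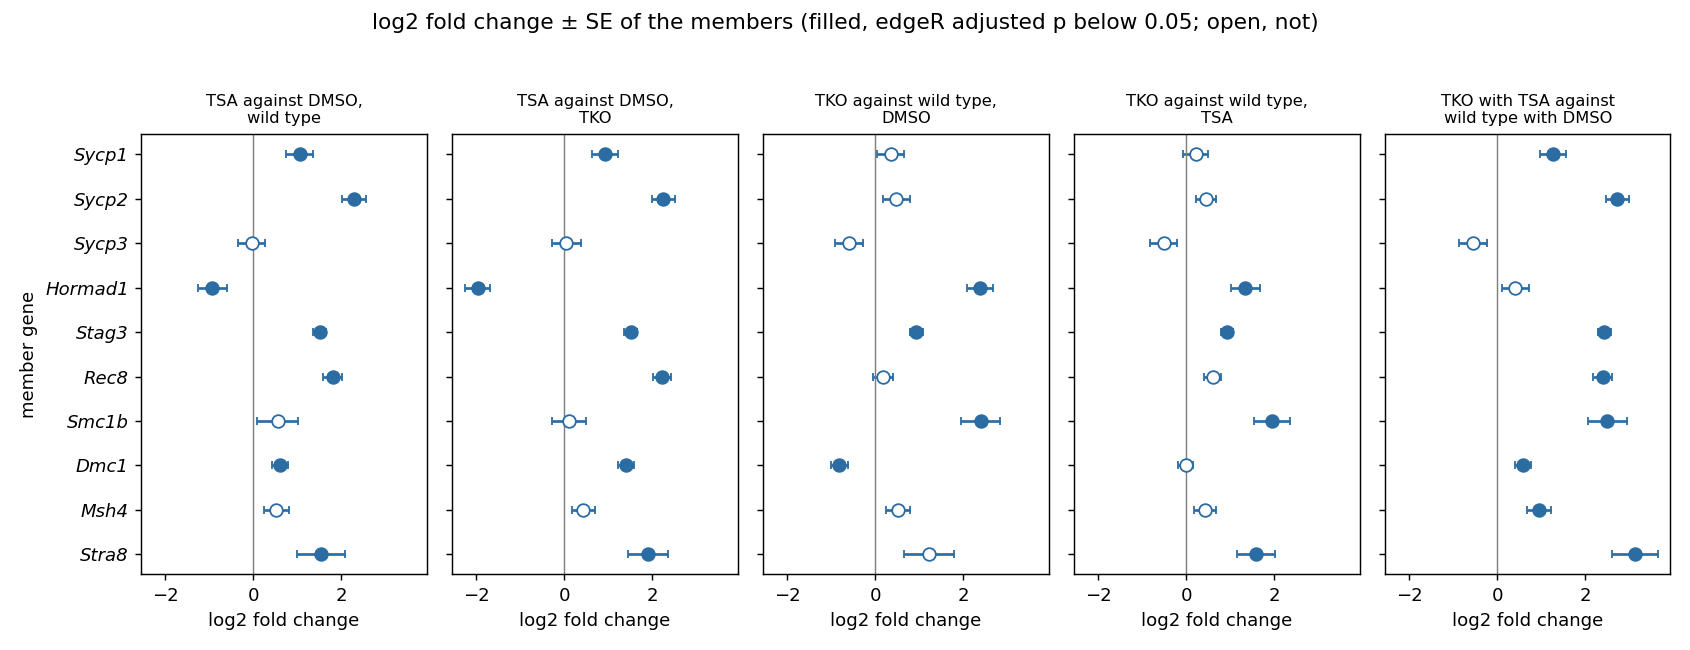
log2 fold changes of the members in 5 comparisons. The x axis is the log2 fold change with its SE as a bar, each row is a member, and filled points passed an edgeR adjusted p of 0.05. With both changes together 8 of 10 members are filled and to the right of 0, while Sycp3 is open in every comparison.

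The meiotic cohesin subunits were called in different sets of comparisons, and differences between the genes were not tested. Stag3 (chromosome 5, 138280509 to 138312393, plus strand), the meiotic partner of the cohesin ring, rose both with TSA and in TKO cells. Its level was 45.2 and 49.3 CPM in wild type cells with DMSO and 115 and 153 in those with TSA, and 80.0 and 99.6 in TKO cells with DMSO and 252 and 257 in those with TSA. No 2 groups overlapped, and both DMSO groups were below both TSA groups, with TKO above wild type in each treatment. TSA raised it by a log2 fold change of 1.51 ± 0.15 (SE) in wild type cells and 1.50 ± 0.14 in TKO cells. TKO cells were above wild type cells by 0.93 ± 0.15 in DMSO and 0.92 ± 0.14 in TSA. The largest of the 4 adjusted p-values in edgeR's quasi-likelihood test was 0.00141. With both changes it was 5.39-fold higher than in wild type DMSO. All 5 calls were made under every alternative setting tried and without each of the 8 libraries.

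Rec8 (chromosome 14, 55618166 to 55625395, plus strand), the kleisin that closes the meiotic cohesin ring, responded to TSA. It was at 12.4 and 14.3 CPM in wild type cells with DMSO and 39.6 and 53.3 in those with TSA, and at 12.5 and 17.8 in TKO cells with DMSO and 58.7 and 82.0 in those with TSA. The TSA libraries were all above the DMSO libraries, and the DMSO libraries of the 2 genotypes overlapped. The log2 fold change with TSA was 1.80 ± 0.22 (SE) in wild type cells (edgeR adjusted p = 8.93e-05) and 2.22 ± 0.21 in TKO cells (edgeR adjusted p = 1.31e-05). Between the genotypes in DMSO it was 0.18 ± 0.23 (edgeR adjusted p = 0.631). Under TSA the TKO libraries were above the wild type ones, by 0.60 ± 0.20 at an edgeR adjusted p of 0.0560. That difference passed in DESeq2 (adjusted p = 0.0313), without the filter on low counts (adjusted p = 0.0195), without wild type TSA replicate 2 (0.83, adjusted p = 0.0332) and without TKO TSA replicate 1 (0.82, adjusted p = 0.0261). It was 0.40 without wild type TSA replicate 1 and 0.34 without TKO TSA replicate 2.

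Smc1b (chromosome 15, 85064689 to 85131957, minus strand), the meiotic form of the cohesin ATPase Smc1, was higher in TKO cells. Its level was 4.35 and 16.9 CPM in wild type cells with DMSO and 9.95 and 20.9 in those with TSA, and at 51.6 and 58.8 in TKO cells with DMSO and 54.2 and 63.9 in those with TSA. Every TKO library was above every wild type library, and the 2 treatments overlapped within each genotype. In edgeR's test TKO cells were above wild type cells by a log2 value of 2.40 ± 0.44 (SE) in DMSO (adjusted p = 0.00339) and 1.95 ± 0.42 in TSA (adjusted p = 0.00914). With TSA it was 0.55 ± 0.46 in wild type cells (edgeR adjusted p = 0.334) and 0.10 ± 0.39 in TKO cells (edgeR adjusted p = 0.837). The wild type DMSO libraries differed 3.89-fold, so the size of the difference between genotypes rests on which one is used. In DMSO it was 1.69 without replicate 1 and 3.66 without replicate 2 of wild type DMSO, and under TSA it was 2.57 without wild type TSA replicate 2. Under TSA the call was lost without wild type TSA replicate 1 (1.50, adjusted p = 0.0683) and in DESeq2 (adjusted p = 0.0535), and the TSA effect in wild type cells passed the test without wild type DMSO replicate 2 (1.81, adjusted p = 0.00523).

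Among the axis proteins, Hormad1 was the member that TSA lowered. Hormad1 (chromosome 3, 95559677 to 95587671, plus strand) marks unsynapsed axes and promotes break formation there. It was at 5.56 and 11.0 CPM in wild type cells with DMSO and 2.93 and 5.77 in those with TSA, and at 44.7 and 40.7 in TKO cells with DMSO and 11.9 and 9.98 in those with TSA. Both TKO DMSO libraries stood above all 6 others. Hormad1 rose in TKO cells by a log2 fold change of 2.38 ± 0.30 (SE) in DMSO (edgeR adjusted p = 0.000361) and by 1.34 ± 0.33 under TSA (edgeR adjusted p = 0.0163). TSA lowered it 3.90-fold in TKO cells (log2 fold change -1.97 ± 0.28, edgeR adjusted p = 0.000165), back to a level whose libraries overlapped with wild type DMSO (0.41 ± 0.31, edgeR adjusted p = 0.268). In wild type cells the log2 fold change with TSA was -0.93 ± 0.34 at an edgeR adjusted p of 0.0381, with overlapping libraries. That call was lost when libraries were scaled by total counts (adjusted p = 0.0932) or by the upper quartile (adjusted p = 0.0801), when only the wild type libraries were fitted (adjusted p = 0.0825), and without any 1 of 4 libraries: wild type DMSO replicate 2 (adjusted p = 0.378), wild type TSA replicate 1 (0.237), TKO DMSO replicate 1 (0.0529) or TKO DMSO replicate 2 (0.0521). The genotype call under TSA was lost without wild type TSA replicate 1 (0.92, adjusted p = 0.132) or TKO TSA replicate 1 (1.21, adjusted p = 0.0639), and the comparison of both changes with wild type DMSO passed the test without wild type DMSO replicate 2 (0.97, adjusted p = 0.0223).

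Sycp2 and Sycp3, which form the lateral elements of the synaptonemal complex together, were not called in the same comparisons. Sycp2 (chromosome 2, 178345296 to 178407658, minus strand) was at 2.92 and 3.73 CPM in wild type cells with DMSO and 11.8 and 20.4 in those with TSA, and at 4.51 and 4.73 in TKO cells with DMSO and 20.9 and 23.0 in those with TSA. All 4 TSA libraries were above all 4 DMSO libraries, and in each treatment the TKO libraries were above the wild type ones. TSA raised it 4.85-fold in wild type cells (edgeR adjusted p = 7.78e-05) and 4.75-fold in TKO cells (edgeR adjusted p = 3.26e-05). Its log2 fold change in TKO cells was 0.48 ± 0.30 (SE) in DMSO (edgeR adjusted p = 0.292) and 0.45 ± 0.22 in TSA (edgeR adjusted p = 0.192), the second of which passed the test without wild type TSA replicate 2 (0.89, adjusted p = 0.0219).

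Sycp3 (chromosome 10, 88459587 to 88473236, plus strand) was at 12.1 and 24.0 CPM in wild type cells with DMSO and 15.2 and 19.8 in those with TSA, and at 8.82 and 14.9 in TKO cells with DMSO and 10.8 and 13.6 in those with TSA. It did not pass the test in any of the 6 comparisons. With a replicate block in the edgeR model, it was called lower in TKO cells in DMSO (adjusted p = 0.0295) and under TSA (0.0453). The same held for both changes against wild type DMSO (0.0216). Its log2 fold change with TSA was -0.04 ± 0.31 (SE) in wild type cells and 0.05 ± 0.32 in TKO cells. Scaling by total counts gave 0.17 in wild type cells and scaling by the upper quartile 0.11, so no direction is given. In TKO cells it was -0.60 ± 0.32 in DMSO (edgeR adjusted p = 0.214) and -0.51 ± 0.31 in TSA (edgeR adjusted p = 0.280). Without wild type DMSO replicate 1, the lower of its group, the DMSO difference passed the test (-1.04, adjusted p = 0.0413), as did that of both changes against wild type DMSO (-0.98, adjusted p = 0.0133). Sycp3 shares 80 bases of exon, 7.13% of its length, with Chpt1 on the opposite strand, and no source used here says if reads were counted by strand. No other member shares exon bases with another gene.

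Sycp1 (chromosome 3, 102818499 to 102936100, minus strand), the transverse filament that zips homologous axes together, was at 5.35 and 11.4 CPM in wild type cells with DMSO and 13.2 and 21.3 in those with TSA, and at 10.7 and 10.5 in TKO cells with DMSO and 20.8 and 19.3 in those with TSA. The TSA libraries of each genotype were above its DMSO libraries, and the genotypes overlapped in both treatments. The log2 fold change with TSA was 1.05 ± 0.30 (SE) in wild type cells (edgeR adjusted p = 0.0135) and 0.92 ± 0.29 in TKO cells (edgeR adjusted p = 0.0187). In wild type cells it was 0.59 without wild type DMSO replicate 1 (adjusted p = 0.0952), 0.66 without wild type TSA replicate 2 (adjusted p = 0.123) and 1.68 without wild type DMSO replicate 2. In TKO cells the call was lost without TKO DMSO replicate 1 (adjusted p = 0.0795), TKO DMSO replicate 2 (0.0806) or TKO TSA replicate 1 (0.0618), with values of 0.86 to 0.93. Between the genotypes in DMSO it was 0.35 ± 0.31 (edgeR adjusted p = 0.481), which passed the test without wild type DMSO replicate 2 (0.98, adjusted p = 0.0412).

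In edgeR's test with all 8 libraries and no replicate block, Dmc1 was the only member called lower in TKO cells, in DMSO only. Dmc1 (chromosome 15, 79561500 to 79605084, minus strand), the meiosis-specific recombinase, was at 9.70 and 13.3 CPM in wild type cells with DMSO and 17.9 and 16.8 in those with TSA, and at 6.09 and 6.91 in TKO cells with DMSO and 17.9 and 16.4 in those with TSA. TKO DMSO was the lowest group, and the 2 TSA groups overlapped. In DMSO it was 1.76-fold lower in TKO than in wild type cells (log2 fold change -0.82 ± 0.19 (SE), edgeR adjusted p = 0.0120), and under TSA the log2 fold change was -0.01 ± 0.17 (edgeR adjusted p = 0.966). TSA raised it by 0.60 ± 0.18 in wild type cells (edgeR adjusted p = 0.0155) and by 1.40 ± 0.19 in TKO cells (edgeR adjusted p = 9.56e-05). The call between genotypes in DMSO was lost without wild type DMSO replicate 2 (-0.58, adjusted p = 0.0628) or TKO DMSO replicate 1 (-0.73, adjusted p = 0.0880). The TSA call in wild type cells was lost without wild type DMSO replicate 1 (0.38, adjusted p = 0.113) or wild type TSA replicate 1 (0.55, adjusted p = 0.0751).

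Msh4 (chromosome 3, 153857147 to 153906138, minus strand), a subunit of the complex that stabilises crossover intermediates with Msh5, was at 2.43 and 2.11 CPM in wild type cells with DMSO and 2.87 and 3.67 in those with TSA, and at 2.94 and 3.56 in TKO cells with DMSO and 3.99 and 4.77 in those with TSA. Both libraries of wild type DMSO were below all others, and both of TKO TSA above all others. No single change passed the test, with log2 fold changes of 0.43 to 0.52, but both changes together gave 0.95 ± 0.27 (SE, edgeR adjusted p = 0.0106). That call was lost without wild type DMSO replicate 2 (0.85, adjusted p = 0.0544) or TKO TSA replicate 2 (0.81, adjusted p = 0.0715).

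Stra8 (chromosome 6, 34920960 to 34939342, plus strand), the switch into meiosis, was at 0.856 and 2.92 CPM in wild type cells with DMSO and 4.21 and 6.59 in those with TSA, and at 2.67 and 6.04 in TKO cells with DMSO and 11.1 and 21.1 in those with TSA. In counts these were 12 and 36, 69 and 97, 39 and 83, and 164 and 336. The libraries of TKO TSA were above all others, while TKO DMSO overlapped with both wild type groups. With both changes it was 8.71-fold higher than in wild type DMSO (log2 fold change 3.12 ± 0.52 (SE), edgeR adjusted p = 0.000345), a value that moves with 1 library. TSA raised it by 1.54 ± 0.55 in wild type cells (edgeR adjusted p = 0.0352) and 1.89 ± 0.45 in TKO cells (edgeR adjusted p = 0.00418). In TKO cells it was higher by 1.58 ± 0.44 under TSA (edgeR adjusted p = 0.0289) and by 1.23 ± 0.57 in DMSO (edgeR adjusted p = 0.155), the latter not passing the test.

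The 2 libraries of wild type DMSO differed 3.41-fold in Stra8, and its values move with them. Without replicate 1 of that group, TSA in wild type cells gave 0.88 (adjusted p = 0.235) and both changes gave 2.45, and without replicate 2 they gave 2.63 and 4.22, while TKO against wild type in DMSO gave 2.33 and passed the test (adjusted p = 0.0454). The TSA call in wild type cells was also lost without wild type TSA replicate 2 (adjusted p = 0.151) and in DESeq2 (adjusted p = 0.0965), and the TSA effect in TKO cells was 2.59 without TKO DMSO replicate 2. The genotype call under TSA was lost without wild type TSA replicate 1 (adjusted p = 0.184), without TKO TSA replicate 2 (1.04, adjusted p = 0.225) and in DESeq2 (adjusted p = 0.163). Replicate 2 was above replicate 1 in all 4 groups for 6 of 10 members (Sycp2, Sycp3, Stag3, Smc1b, Rec8 and Stra8), against 12.0% of tested genes, and the labels do not say what a replicate number stands for.

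Whether TSA acted differently in the 2 genotypes was tested with the interaction, the TSA effect in TKO cells minus that in wild type cells, in which 1.35% of tested genes were called (0.879% higher, 0.468% lower). None of the 10 members was called by edgeR, and 0 were called by DESeq2 or under any other setting tried. At an unadjusted p below 0.05 in edgeR's test there were 2 members, where 14.5% of all tested genes had such a p, Dmc1 (0.81 ± 0.26 (SE), edgeR adjusted p = 0.172) and Hormad1 (-1.04 ± 0.44, edgeR adjusted p = 0.313). Neither passed after adjustment, so only their point estimates are described. By these estimates Dmc1 rose more with TSA in TKO cells, from a lower DMSO level to an overlapping TSA level. Hormad1 fell by more in TKO cells, from a higher DMSO level. For Stag3 the interaction was -0.00 ± 0.19 and for Sycp2 -0.03 ± 0.37. The summed log2 changes of genotype and treatment were 2.43 for Stag3 and 2.76 for Sycp2, and both together gave 2.43 and 2.73. The gap between the sum and both together is the interaction itself, so it adds no support. Without 1 library the interaction ran from -0.20 to 0.22 for Stag3 and from -0.38 to 0.41 for Sycp2. The error of Sycp2 thus also leaves room for a difference in either direction. The interaction of Smc1b was -0.45 ± 0.60 and that of Stra8 0.35 ± 0.73, so their errors leave room for sizeable differences in either direction.

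**Figure D4:**
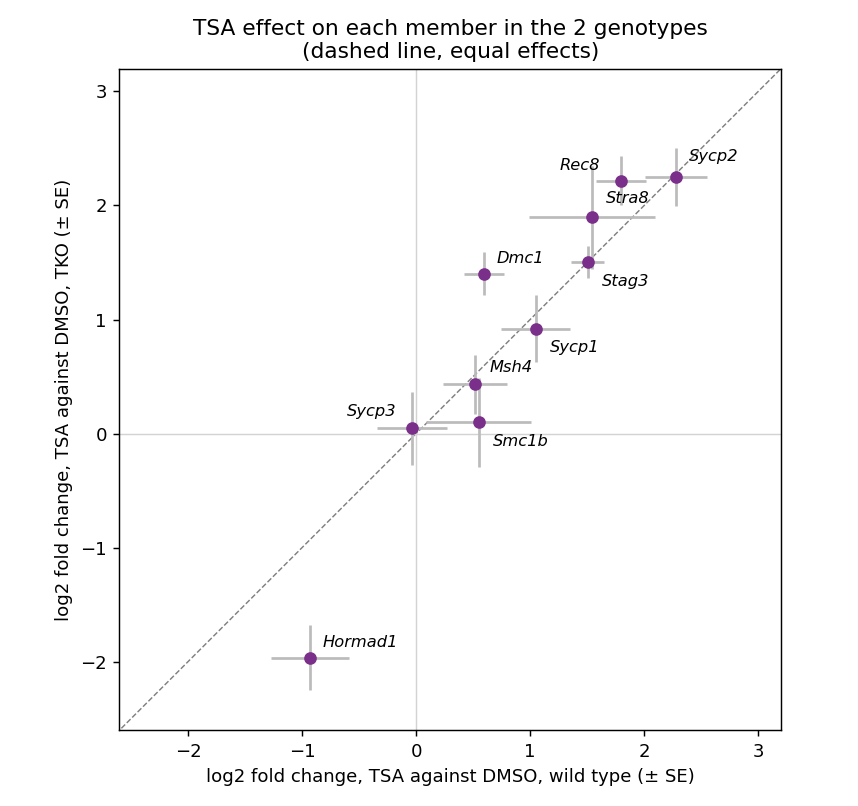
TSA effect on each member in the 2 genotypes. The x axis is the log2 fold change with TSA in wild type cells and the y axis that in TKO cells, each with its SE, and the dashed line marks equal effects. Stag3 and Sycp2 lie on the line, Dmc1 above it at 0.60 and 1.40, and Hormad1 below it at -0.93 and -1.97.

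The meiotic cohesin subunits each have a counterpart that works in every dividing cell, and levels were compared with it per exon length (RPKM, reads per kilobase of exon scaled to the size of the library). Stag3 was at 25.1 ± 0.784% (SD, n = 2) of its counterpart Stag1 in wild type DMSO and 53.9 ± 10.2% in TKO DMSO, and with TSA at 100 ± 15.2% in wild type and 195 ± 9.75% in TKO cells. Against Stag2 the same shares were 17.5, 50.7, 83.1 and 190%. Rec8 was at 6.89 ± 0.198% of Rad21 in wild type DMSO and 8.15 ± 2.14% in TKO DMSO, and at 25.1 ± 3.02% and 39.4 ± 9.82% in the same genotypes with TSA. Smc1b was at 4.67 ± 3.87% of Smc1a in wild type cells with DMSO and 9.42 ± 4.78% with TSA, and at 25.5 ± 2.14% and 33.8 ± 4.20% in TKO DMSO and TKO TSA.

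The counterparts themselves also changed. Of the 9 mitotic counterparts, 0 rose and 6 fell with TSA in each genotype, against 25.9% and 27.9% of all genes lower. Stag2 fell by 0.76 and Stag1 by 0.50 (log2) in wild type cells, and Smc1a by 0.47. Scaling by total counts, which moves the median of all genes by 0.22 and 0.19 in these comparisons, gave 1 higher and 4 lower in each genotype. In TKO against wild type cells, 1 of 9 fell in DMSO, Stag2 (-0.57 ± 0.13 (SE), edgeR adjusted p = 0.0111), which was lost without wild type DMSO replicate 2 (adjusted p = 0.0562) or TKO DMSO replicate 2 (adjusted p = 0.120), and 0 were called under TSA, or 1, higher, without either wild type DMSO replicate.

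**Figure D5:**
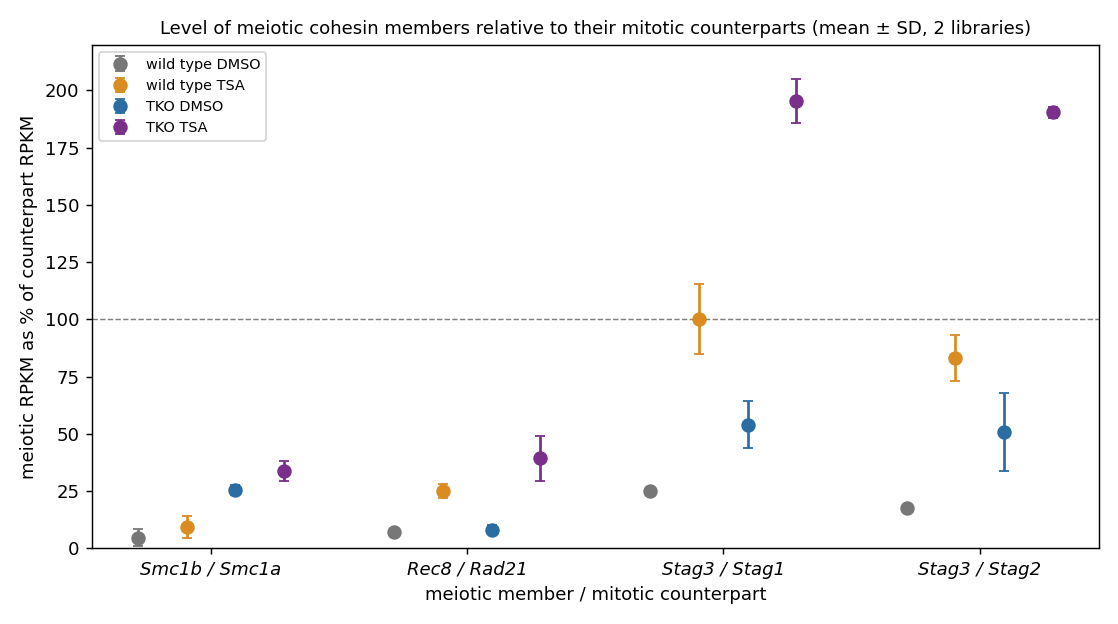
Level of the meiotic cohesin members as a percentage of their mitotic counterparts. The y axis is the ratio of RPKM values in percent with its SD over 2 libraries, the x axis the gene pairs, and colours the 4 groups. Stag3 passes the level of Stag1 and Stag2 in TKO TSA, at 195% and 190%, while the means of Rec8 and Smc1b stay below 40% of theirs.

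Per exon length, Sycp3 (16.1 ± 7.51 RPKM, SD, n = 2, above 65.1% of tested genes) and Stag3 (11.2 ± 0.687) had the highest means in wild type DMSO and did not differ beyond their spread. In TKO TSA, Stag3 led at 60.2 ± 0.740 RPKM, above 91.5% of tested genes, followed by Rec8 at 34.2 ± 8.00. Smc1b went from above 33.4% of tested genes in wild type cells to above 61.8% in TKO cells, both with DMSO, and Hormad1 from 43.7% to 76.9%. Sycp2 (0.585 ± 0.0997 RPKM) and Msh4 (0.681 ± 0.0678 RPKM) had the lowest means in wild type DMSO and did not differ beyond their spread. Stra8, at 1.30 ± 1.00 RPKM there, did not differ from them beyond its spread.

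The other genes of the programme were counted from lists by role. These lists too were chosen with earlier results of these data known, so the shares of all genes beside their counts give scale only. Of 13 tested axis and synaptonemal complex genes besides the members (14 listed), 5 rose and 2 fell with TSA in wild type cells and 4 rose and 4 fell in TKO cells, close to the shares of all genes called (52.8% and 58.7%). In TKO cells 7 rose and 0 fell in DMSO, and 4 rose and 0 fell under TSA, where 9.62% and 10.0% of all genes were higher. Fkbp6, needed for chromosome pairing, rose with the genotype, from 3.11 CPM in wild type to 55.9 in TKO cells with DMSO (log2 fold change 4.19 ± 0.24 (SE), edgeR adjusted p = 4.14e-06). It fell with TSA in TKO cells (-1.09 ± 0.19, edgeR adjusted p = 0.000587). Rad21l, another meiotic kleisin, rose with TSA (1.96 ± 0.34 in wild type and 2.45 ± 0.38 in TKO cells), from 1.00 and 0.528 CPM in the DMSO groups. Syce1, a central element protein that binds Sycp1, rose in all 4 single comparisons, by 0.47 to 1.34, while its partner Syce2 fell with TSA, by 1.03 in wild type cells. Terb2 (listed in the table as 4933406J08Rik), which ties telomeres to the nuclear envelope, rose by 2.51 ± 0.40 in TKO cells in DMSO, which was 1.88 without replicate 1 and 3.47 without replicate 2 of wild type DMSO, while Fkbp6 was 4.85 without replicate 2. The count with TSA in TKO cells went from 8 to 5 without TKO DMSO replicate 1, and that of TKO cells under TSA from 4 to 7 without wild type DMSO replicate 2.

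Of 18 tested recombination genes besides the members (23 listed, 20 in the table), 6 rose and 4 fell with TSA in each genotype, close to the 52.8% and 58.7% of all genes called. In TKO cells 4 rose and 0 fell in DMSO, and 4 rose and 1 fell under TSA, where 20.4% and 18.4% of all genes were called. Tex15, a germ cell protein needed for meiotic break repair, was among the genes that rose with TSA. It went from 81.2 to 392 CPM in wild type cells and from 116 to 532 in TKO cells. Rec114 (listed as 2410076I21Rik), a subunit of the break machinery, rose in TKO cells by a log2 fold change of 2.44 ± 0.37 (SE) in DMSO (edgeR adjusted p = 0.00124), which was 1.80 without replicate 1 and 3.44 without replicate 2 of wild type DMSO. Brme1 (listed as 4930432K21Rik) and Hsf2bp, which act with BRCA2 in loading Dmc1, rose in TKO cells in DMSO by 1.24 and 1.26, and Hsf2bp fell with TSA in TKO cells (-0.91 ± 0.12, edgeR adjusted p = 0.000105). The count with TSA was 5 without wild type TSA replicate 2 in wild type cells and 6 without TKO DMSO replicate 1 in TKO cells. That of TKO cells under TSA went from 5 to 3 without wild type TSA replicate 1, TKO TSA replicate 1 or TKO TSA replicate 2.

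Of 9 tested regulators of germ cell fate and meiotic entry (12 listed, 11 in the table), 7 rose and 0 fell with TSA in wild type cells and 7 rose and 1 fell in TKO cells, where 27.0% and 30.8% of all genes were higher. In TKO cells 4 rose and 0 fell in DMSO, where 9.62% of all genes were higher and 10.7% lower. Under TSA 5 rose and 1 fell in TKO cells, where 10.0% were higher and 8.38% lower. The number called under TSA went from 6 to 3 without wild type TSA replicate 1. Dazl, an RNA-binding protein that licenses germ cells for meiosis, went with TSA from 10.4 to 42.0 CPM in wild type cells and from 141 to 263 CPM in TKO cells. Its TSA effect in wild type cells was 2.02 ± 0.32 (log2 ± SE, edgeR adjusted p = 0.000415), and 1.32 without wild type TSA replicate 2. Meioc (listed as Gm1564), which holds germ cells in meiotic prophase, rose with TSA by 1.86 ± 0.25 in wild type and 2.44 ± 0.26 in TKO cells. Taf7l, a germline subunit of the basal transcription factor TFIID, rose in all 4 single comparisons, by 1.12 to 2.74, and Ddx4, a germ cell helicase, fell with TSA in TKO cells (-1.25 ± 0.19, edgeR adjusted p = 0.000270).

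Of 12 tested subunits of PRC1.6 and E2f6 complexes, 0 rose and 5 fell with TSA in each genotype, where 25.9% and 27.9% of all genes were lower, and a smaller share was called than the 52.8% and 58.7% of all genes. Rnf2, the E3 ligase that writes H2A ubiquitin, fell by 0.61 in wild type and by 0.98 in TKO cells (log2, edgeR adjusted p = 0.00338 and 0.000130). Pcgf6 fell by 0.49 and 0.46. Mga, the subunit that binds E-boxes, was at 718 CPM with DMSO and 561 with TSA in wild type cells, a log2 fold change of -0.36 ± 0.11 (SE, edgeR adjusted p = 0.0221), and fell by 0.65 in TKO cells. In TKO cells in DMSO 1 rose (Mga, 0.37) and 2 fell (Tfdp1, -0.90, and E2f6, -0.41), where 20.4% of all genes were called, and under TSA 1 fell (Tfdp1, -0.57, lost without wild type TSA replicate 1 or TKO TSA replicate 2). E2f6 itself was at 27.9 CPM in wild type cells with DMSO and 30.2 in those with TSA, and its TKO libraries with DMSO were at 21.1 and 20.9 CPM, below the mean of 23.7 in TKO cells with TSA. Scaling by total counts gave 1 higher and 4 lower in wild type cells and 2 higher and 3 lower in TKO cells with TSA. The E2f6 call was lost without any 1 of the 8 libraries (edgeR adjusted p = 0.0517 to 0.181), with total counts (0.0526) or the upper quartile (0.0551) as scaling, without the filter (0.0639) and in DESeq2 (0.0920). That of Mga in DMSO was lost without wild type DMSO replicate 1 (0.19, edgeR adjusted p = 0.270), TKO DMSO replicate 1 (0.173), TKO DMSO replicate 2 (0.128) or wild type TSA replicate 1 (0.0510). The TSA counts went from 5 to 3 without wild type DMSO replicate 2 or wild type TSA replicate 1, and without TKO DMSO replicate 1 or TKO TSA replicate 2. The count in DMSO went from 3 to 1 without wild type DMSO replicate 1, TKO DMSO replicate 1, TKO DMSO replicate 2 or wild type TSA replicate 1, and that under TSA from 1 to 0 without wild type TSA replicate 1, to 2 without TKO TSA replicate 1 and to 3 without either wild type DMSO replicate.

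Genes with the pattern most like that of each member were sought among 14421 tested genes whose mean reached 1 CPM, by the root mean square difference of log2 CPM over the 8 libraries after centring each gene on its mean. The nearest to Sycp2 were Sit1 (0.13), Tex15 (0.14) and Dmrt2 (0.14), and Rec8 was the nearest other member (0.21). The nearest to Rec8 were Rasgef1b (0.11), Lmcd1 (0.12) and Ttc39c (0.13). Stag3 was most like Grhl3 (0.12), Sowaha (0.12) and Kcnu1 (0.14), each lowest in wild type DMSO and highest in TKO TSA. Smc1b was most like Nlrp4f (0.24), Rhox1 (0.30) and Tdrd9 (0.38), all high in both TKO groups. Hormad1 had no close match, with Ceacam1 at 0.28, Smtnl1 at 0.30 and Gm13247 at 0.34, each of which was highest in TKO DMSO. Dmc1 was most like AK129341 (0.12), Cgrrf1 and Nudt12 (0.13 each). Msh4 was most like Atrn (0.06), Sycp1 like Phactr3 (0.12) and Sycp3 like 9430091E24Rik (0.17). For each of the 10 members the nearest other member was farther away than its 3 nearest genes. The nearest genes were sought among 14421 genes and the nearest member only among the 10 members. That order is therefore nearly fixed by the sizes of the searches, and no conclusion is drawn from it. Among the members, Smc1b and Hormad1 stood farthest from the rest, at 0.89 from Stra8 and 0.97 from Smc1b, their nearest members.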

How the data were processed

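Of the 126 samples of the series, the 8 RNA-seq libraries were used and the 118 ChIP-seq, ATAC-seq and control samples were not used here. Per the labels' protocols, total RNA was DNase treated, depleted of ribosomal RNA and made into strand-directional libraries read as pairs. The authors deposited raw read counts per gene, with exon positions and a total exon length per gene. The submitters' processing notes name TopHat2 2.0.13, featureCounts 1.4.5-p1, edgeR 3.22.3 and the mm10 build, with no role or order. Whether counting used the strand, and how reads with several matches were treated, is not given in the sources used here.

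Groups came from the library titles. In edgeR 4.0.16 (R 4.3.3), filterByExpr kept 15822 genes, libraries were scaled by TMM, and 1 quasi-likelihood model with 4 group means was fitted to the 8 libraries (4 residual degrees of freedom). P-values were two-sided, adjusted by Benjamini-Hochberg over all tested genes, and a gene was called below 0.05. SE values are approximate, computed as the log2 fold change over the square root of F. The common biological coefficient of variation was 10.3%, and the chi-square per degree of freedom between replicates was 5.38 to 12.4, so each library counted as 1 replicate. The tests were also run on simulated counts with far fewer changed genes than were called with TSA and no shift by replicate number. That run therefore does not check the scaling or the part of replicate numbers in these data.

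Named genes were all 10 members, up to 4 called genes per list and comparison whose mean reached 1 CPM, the 3 targeted genes, the 3 genes nearest in pattern to each member (log2 of CPM plus 0.5) and any gene sharing exon bases. Some named genes are not reported here. Members and lists were chosen with earlier results of these data known. Alternatives for the listed genes and for the counts by list were added after seeing the data. Promoter windows come from RefSeq (GRCm38.p6), and only the 250 bases before the start were used. Alternatives were scaling by total counts, upper quartile or RLE, no filter, a replicate block, only the compared groups, DESeq2 1.42.0, and leaving out each library.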

Additional observations from a re-analysis of the deposited data

How the results depend on the processing

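Of 60 values of the members (10 genes in 6 comparisons), 60 kept their direction and their side of the threshold with RLE scaling, 59 without the filter on low counts, 58 with each of the other scalings and 56 in DESeq2. Fitting only the compared groups, which leaves out the interaction, kept 49 and lost 1, Hormad1 with TSA in wild type cells. No member's called change reversed under these settings. Reversals were of values that were not called: Sycp3 with TSA in wild type cells went from -0.04 to 0.17 with total counts as scaling and 0.11 with the upper quartile. Scaling moved the median of all genes with TSA by 0.22 in wild type cells, 0.19 in TKO cells and 0.17 for both changes (total counts), and by 0.16, 0.11 and 0.11 (upper quartile). Over all genes, the split of higher and lower calls with TSA in wild type cells was 5809 to 2437 with total counts and 5365 to 2794 with the upper quartile, against 4266 to 4092, and in TKO cells 5904 to 3268 and 5337 to 3787, against 4872 to 4412. For both changes it was 6058 to 3548 and 5653 to 3961, against 5015 to 4778. For TKO against wild type under TSA it was 1380 to 1513 and 1326 to 1574, against 1584 to 1326. In the interaction, 213 genes were called, 488 without the filter and 401 in DESeq2, and the cause was not tested.

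The replicate numbers are shared between groups. Deviations of same-numbered libraries correlated positively over genes in each of the 6 pairs of groups, with r of 0.0673 to 0.325. The labels do not say that a replicate number marks a shared day or batch, so edgeR's test had no replicate block. Some member calls depend on that choice. With a replicate block, members called were 6 for TKO against wild type in DMSO (4 higher, 2 lower), 6 under TSA (5 higher, 1 lower) and 9 for both changes (8 higher, 1 lower), and 633 genes were called in the interaction. The block added 5 calls (edgeR adjusted p): Sycp3 lower in TKO cells in DMSO (-0.58, 0.0295), under TSA (0.0453) and for both changes (-0.51, 0.0216), Stra8 higher in TKO cells in DMSO (1.23, 0.00708) and Rec8 higher in TKO cells under TSA (0.59, 0.00141). It turned 2 values that were not called, Sycp3 with TSA in wild type cells (0.0054) and Stag3 in the interaction (0.0181).

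Leaving out 1 library at a time gave, for members called, 4 to 7 for TSA in wild type cells, 6 to 7 for TSA in TKO cells, 3 to 5 for TKO in DMSO, 1 to 6 for TKO under TSA, 7 to 8 for both changes and 0 to 0 for the interaction. For all genes it gave 5780 to 8279 for TSA in wild type cells, 7123 to 9840 for TSA in TKO cells, 1458 to 3331 for TKO in DMSO, 941 to 3443 for TKO under TSA, 7898 to 9650 for both changes and 10 to 410 for the interaction. The lowest were without TKO DMSO replicate 2 (1458 and 10) and without wild type TSA replicate 1 (941). Counts for TKO in DMSO were also below 3220 by over 1.5 times without TKO DMSO replicate 1 (1806) or wild type DMSO replicate 1 (1703), and that under TSA without TKO TSA replicate 2 (1356). The interaction gave 72 and 410 without wild type DMSO replicates 1 and 2, 44 without TKO DMSO replicate 1, 53 and 118 without wild type TSA replicates 1 and 2, and 52 without TKO TSA replicate 2. Values that changed sign without 1 library, none of them called with all 8 libraries, ranged as follows (log2). For TSA in wild type cells, Sycp3 was at -0.46 to 0.53, Smc1b was at -0.15 to 1.81. For TSA in TKO cells, Sycp3 was at -0.29 to 0.47, Smc1b was at -0.0276 to 0.21. For TKO in DMSO, Sycp1 was at -0.13 to 0.98, Rec8 was at -0.0925 to 0.42. For TKO under TSA, Sycp1 was at -0.0926 to 0.60, Dmc1 was at -0.0757 to 0.0498. For both changes, Sycp3 was at -0.98 to 0.0155, Hormad1 was at -0.0212 to 0.97. For the interaction, Sycp1 was at -0.76 to 0.34, Sycp2 was at -0.38 to 0.41, Sycp3 was at -0.48 to 0.52, Stag3 was at -0.20 to 0.22, Smc1b was at -1.71 to 0.26, Stra8 was at -0.74 to 1.05, Msh4 was at -0.26 to 0.10.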

Other observations

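Genes of primordial germ cells did not form 1 pattern. Of 7 tested, 4 rose and 3 fell with TSA in wild type cells, and 3 rose and 2 fell in TKO cells. Of all tested genes, 52.8% and 58.7% were called in these comparisons. In the interaction 2 of the 7 were called, where 1.35% of all genes were. They were Nanos3 (-1.90 ± 0.38 (SE), edgeR adjusted p = 0.0394) and Prdm14 (-1.47 ± 0.30, edgeR adjusted p = 0.0445). Tfap2c rose with TSA from a mean of 38.1 to 124 CPM in wild type cells (edgeR adjusted p = 2.13e-05) and from 43.7 to 203 CPM in TKO cells (edgeR adjusted p = 2.32e-06). Dppa3 rose from 24.9 to 70.3 CPM and from 30.3 to 125 CPM in the same genotypes (edgeR adjusted p = 0.000482 and 3.88e-05). Prdm14, a regulator that primordial germ cells share with embryonic stem cells, fell with TSA from 16.4 to 6.02 CPM in wild type cells and from 34.7 to 4.64 CPM in TKO cells (edgeR adjusted p = 0.000281 and 3.09e-06). Spaca1, an acrosome gene, was the only 1 of 8 spermatid markers that passed the filter on low counts. It went with TSA from 0.224 to 3.52 CPM in wild type cells and from 0.355 to 8.49 CPM in TKO cells, and its DMSO libraries held 2 to 6 counts each.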
